A study of Ovis aries with 40 samples.

Results

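The comparison described here is of CF with WT proximal lung at 65 and 80 days of gestation in sheep. It was defined by region, genotype and age alone, and it uses 8 of the 40 bulk RNA libraries of the series, 4 of WT and 4 of CF, with 2 of each genotype at each day. All fetuses were American Romney sheep. WT fetuses came from natural breeding, and CF fetuses carried targeted CFTR alleles on both chromosomes (CFTR-/-) and were made by somatic cell nuclear transfer from 1 edited male fetal fibroblast line. The CF fetuses are therefore clones of a single line, and the sex of the WT fetuses is not given in the sources used here. Each library was made from a whole piece of proximal lung. Beside genotype, the groups differ in cloning, donor line and sequencing depth, so that the part of each in any difference below cannot be told apart. The labels give separate animal codes within each condition, some with a shared stem, and p values measure the spread between these animals only. The code of WT day 65 replicate 2 is also given to a CF library of day 100, and its title and its labels of genotype and age put it in WT day 65.

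CFTR is a chloride and bicarbonate channel of the apical membrane of epithelial cells, and loss of its function causes cystic fibrosis. In the fetal lung, chloride secretion drives liquid into the lumen, and the pressure of that liquid stretches the growing airways. Proximal lung also holds the large airways with their smooth muscle and cartilage. Airway smooth muscle forms from mesenchyme beside the branching tubes under the transcription factor myocardin with serum response factor, and Wnt, BMP, FGF and hedgehog signals pass between epithelium and mesenchyme. Bulk RNA does not show which cells carry a transcript, and fewer cells of a type cannot be told apart from less RNA per cell.

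Levels are given as normalised read counts (CPM, scaled to library size) after TMM scaling over the 8 libraries, as mean ± SD of 4 libraries. Where the 4 libraries of a genotype are listed, the order is day 65 replicates 1 and 2, then day 80 replicates 1 and 2. A log2 fold change is positive where CF was higher, it is given ± SE, and adjusted p values come from edgeR's quasi-likelihood test with day as a covariate, adjusted by Benjamini-Hochberg over the 19072 genes that entered the fit. The WT libraries held 25301277 to 36383484 counts and the CF libraries 90914366 to 100338555 counts, which is 2.91 times as many on average. Along the first principal component, with 40.6% of the variance, the WT libraries lay between -73.7 and -42.3 and the CF libraries between 26.9 and 76.4.

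A pair of CF libraries stood apart by heart muscle transcripts. The summed level of 23 heart muscle genes was 46.3, 70.3, 33.7 and 38.6 CPM in WT and 2165, 83.6, 77.2 and 1150 CPM in CF. CF day 65 replicate 1 and CF day 80 replicate 2 are thus far above the other 6 libraries, and both exceeded all 6 for 19 of the 22 heart muscle genes tested and for 5.09% of all genes. NPPA, the atrial natriuretic peptide gene, had 0 counts in 6 libraries, which in WT allows up to 0.0863 to 0.124 CPM, against 26.2 and 96.5 CPM in these CF libraries. MYL7, the atrial myosin light chain, was at 396 and 189 CPM in these libraries, at 0.198 and 0 CPM in the other CF libraries and at 0.115 CPM or less in WT. In distal lung of days 65 and 80 the list summed to 31.0 to 101 CPM over 8 libraries, with 101 and 84.6 CPM in the distal libraries of these CF animals. The comparison was therefore also fitted without these CF libraries, with 4 WT against 2 CF libraries (the fit of 6 libraries), an alternative chosen after seeing the data. Of 98 genes followed singly that passed over all libraries and could be tested again, 34 kept and 64 lost their call in that fit. Those that kept it were CCDC64, NFATC4, LOC101110287, CDR1, MYOCD, ACTA2, ACTG2, CNN1, MYH11, TAGLN, ITGA7, MRVI1, IGFBP5, STC1, DLK1, COPG2, ECM1, SCUBE1, SLC34A3, PKD1, CATSPER4, DNAH17, EGFL7, LYVE1, NDUFA4, PHF14, CMKLR1, NRG2, TNFRSF25, CDH24, KRBA1, LOC106991688, LOC105602963 and LOC101118735. Their part in the other differences was not tested beyond leaving them out.

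**Figure D1:**
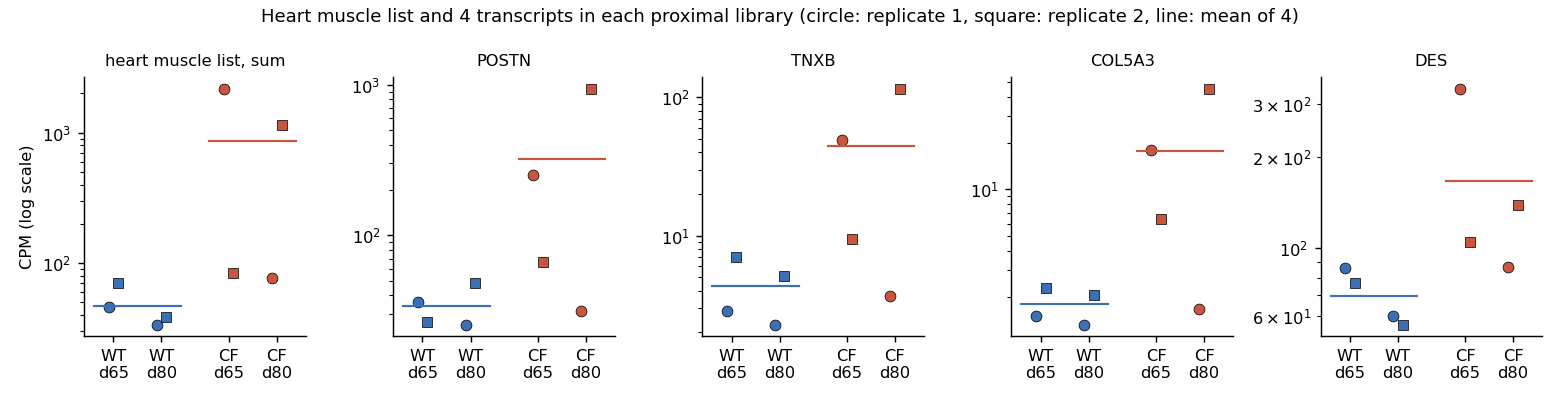
Normalised read counts (CPM, log scale) in each of the 8 proximal libraries for the summed heart muscle list and for POSTN, TNXB, COL5A3 and DES, by genotype and day, with a line at the mean of 4 libraries. CF day 65 replicate 1 (circle) and CF day 80 replicate 2 (square) sit highest in the heart muscle list at 2165 and 1150 CPM, and they are also the highest CF libraries for the 4 transcripts.

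By the limits the study used, that is, adjusted p up to 0.001 and a log2 difference no smaller than 0.58 either way, 3 genes (0.0157% of those tested) were higher and 1 gene (0.00524%) was lower in CF. The study applied these limits at each day by itself, and here they were applied to both days in 1 fit. It named IGFBP5 and MYOCD at day 65 and SSC5D, ECM1, ITGA7, CXCL10 and CXCL11 at day 80. None of these reached the limits in the fit used here. The counts given here moved with the settings. DESeq2 called 1081 higher and 464 lower, leaving out CF day 80 replicate 1 gave 28 and 24, and leaving out any 1 of WT day 65 replicate 2, WT day 80 replicates 1 and 2 and CF day 65 replicates 1 and 2 gave 0 higher. At an adjusted p of 0.05 or less, 2133 genes (11.2%) were higher and 1653 (8.67%) were lower, and 6983 had an unadjusted p below 0.05. Leaving out 1 library gave 799 to 2870 higher and 425 to 2678 lower genes, the lowest counts without CF day 65 replicate 1 and the highest without CF day 80 replicate 1, and a fit of all proximal libraries gave 853 and 230. The median log2 fold change over all genes was 0.02. With counts thinned to equal depth, 2110 genes were higher, of which 1972 were among the 2133 (92.5%), and 1762 were lower, of which 1568 were among the 1653 (94.9%). With a trend on gene length removed the split was 2337 higher and 2857 lower. Without the CF libraries with heart muscle RNA, 99 genes (0.535% of the 18510 tested) were higher and 35 (0.189%) lower by edgeR, with 4 WT against 2 CF libraries, while 2234 and 1850 had an unadjusted p below 0.05 and DESeq2 called 1231 and 1008. In that fit 2109 of the 2111 higher genes still tested and all 1651 lower genes still tested kept their direction.

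CFTR itself lies on chromosome 4 (Oar_v4.0, 50644000 to 50864925). Its transcript was present at 41.5, 31.8, 47.1 and 47.0 CPM in WT and at 21.8, 27.9, 17.9 and 33.1 CPM in CF. All CF values but that of day 80 replicate 2 were below every WT value, and the groups overlap by that library. CFTR was 1.65-fold lower in CF (log2 fold change -0.72 ± 0.20, adjusted p = 0.0376). The targeted exon is not resolved by counts per gene, so the remaining reads say nothing of the protein. Distal lung of the same animals gave -0.56 ± 0.12 (adjusted p = 0.0175). The call in proximal lung was lost when any of 4 single libraries was left out (WT day 65 replicate 1, WT day 80 replicates 1 and 2, CF day 65 replicate 1), with values from -0.88 to -0.52 over the 8 omissions. It was also lost without both CF libraries with heart muscle RNA (-0.86), with all proximal libraries in the fit (-0.69), with the level trend removed (-0.70) and by glmTreat.

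The 4 DEGs did not overlap between genotypes. CCDC64 (chromosome 17, 62027606 to 62106248), a dynein adaptor gene listed as BICDL1 in newer annotation, was at 6.07, 4.49, 3.68 and 3.39 CPM in WT and at 35.3, 35, 30.2 and 30.6 CPM in CF. That is a 7.54-fold higher level in CF (log2 fold change 2.92 ± 0.15, adjusted p = 0.000173), and the groups are far apart on both days. NFATC4 (chromosome 7, 20409693 to 20422959), a calcineurin-dependent transcription factor, was at 34.9 ± 3.73 CPM in WT and 83.2 ± 7.47 CPM in CF (1.26 ± 0.08, adjusted p = 0.000583). LOC101110287 (chromosome 22, 50167562 to 50261471), which RefSeq names CFAP46 and which encodes a protein of motile cilia, was at 19.7 ± 0.505 and 57.1 ± 5.14 CPM (1.53 ± 0.10, adjusted p = 0.000583).

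CDR1 (chromosome X, 89397004 to 89399137) was the DEG that was lower in CF. It was at 177, 185, 169 and 103 CPM in WT and at 7.61, 11.5, 5.95 and 8.65 CPM in CF, an 18.8-fold lower level (-4.23 ± 0.22, adjusted p = 0.000173). Distal lung gave -3.93 ± 0.27 (adjusted p = 0.000538). The strand setting of the counting is not given in the sources used here, and reads of CDR1 cannot be told apart from reads of a transcript of the opposite strand, so no value is given for the circular RNA known from this locus. At term, 147 days, CDR1 was nearly absent from both genotypes, with at most 0.149 CPM in WT and 0.822 CPM in CF.

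**Figure D2:**
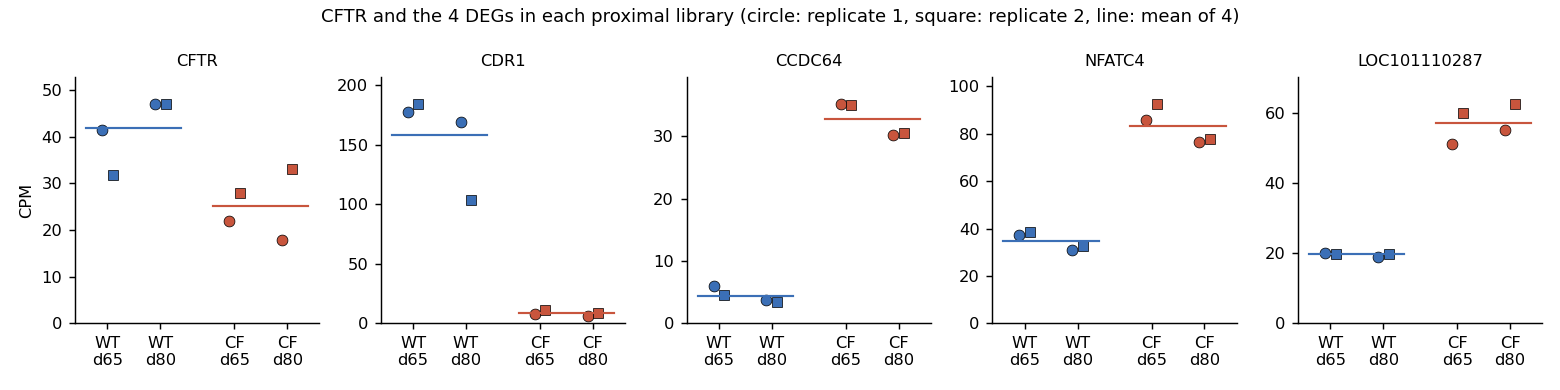
Normalised read counts (CPM) of CFTR and the 4 DEGs in each proximal library, by genotype and day (d65 and d80), with a line at the mean of 4 libraries. CFTR overlaps between genotypes through CF day 80 replicate 2 at 33.1 CPM, whereas CDR1, CCDC64, NFATC4 and LOC101110287 do not overlap.

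The smooth muscle genes that passed, from the master regulator to contractile proteins, were nearly all higher in CF. Of 30 listed smooth muscle genes tested, 16 were higher and 1 was lower at an adjusted p of 0.05 or less, against 11.2% and 8.67% of all genes, and the median log2 fold change was 0.64. In 17 of the 30 all CF libraries were above all WT libraries, as for 14.2% of all genes, and in 2 all were below, as for 12.5%. The 16 fell to 10 without WT day 65 replicate 1 or CF day 65 replicate 1 and to 9 with all proximal libraries or by glmTreat.

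Among the regulators, MYOCD, the gene of myocardin, was at 7.48, 5.03, 3.80 and 4.78 CPM in WT and at 28.5, 32.5, 22.6 and 18.2 CPM in CF. Its level was 4.81-fold higher (2.27 ± 0.18, adjusted p = 0.00103), and it was among the 18 genes that passed on each day by itself. MKL1, a coactivator of serum response factor listed as MRTFA in newer annotation, was at 4.77 ± 0.942 CPM in WT and 12.8 ± 1.67 CPM in CF (1.42 ± 0.20, adjusted p = 0.00454). SRF and MKL2 did not pass the test.

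The contractile genes showed the same order of the groups. ACTA2, smooth muscle alpha actin, was at 111, 97.6, 68.4 and 110 CPM in WT and at 424, 374, 484 and 243 CPM in CF, a 3.95-fold difference (1.98 ± 0.23, adjusted p = 0.00267). ACTG2, the enteric smooth muscle actin, was at 18.0, 17.8, 12.2 and 16.1 CPM in WT and 73.5, 72.5, 64.4 and 38.3 CPM in CF (1.94 ± 0.17, adjusted p = 0.00155). CNN1, calponin, was at 4.54 ± 0.661 CPM in WT and 24.1 ± 7.69 CPM in CF, 5.21-fold higher (2.38 ± 0.23, adjusted p = 0.00192).

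MYH11, the smooth muscle myosin heavy chain, was at 163, 134, 138 and 149 CPM in WT and 458, 521, 361 and 291 CPM in CF (1.45 ± 0.15, adjusted p = 0.00198). TAGLN, transgelin, gave 1.44 ± 0.15 (adjusted p = 0.00199), with 40.4 ± 3.73 CPM in WT and 110 ± 23.3 CPM in CF. ITGA7, a laminin-binding integrin of muscle, went from 13.0 ± 2.31 to 38.7 ± 8.17 CPM (1.58 ± 0.17, adjusted p = 0.00203). MRVI1, a relaxation regulator listed as IRAG1 in newer annotation, was at 6.69 ± 0.742 and 23.9 ± 2.57 CPM (1.83 ± 0.15, adjusted p = 0.00103). CF day 80 replicate 2 had the lowest CF value of MYOCD, ACTA2, ACTG2, CNN1, MYH11 and TAGLN and yet was above every WT library in each.

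The remaining smooth muscle genes moved less. TPM2, KCNMB1, TPM1, SMTN, FLNA and MYLK were higher in CF by log2 values of 0.95, 0.82, 0.62, 0.59, 0.51 and 0.48. LPP, a focal adhesion protein, was the member lower in CF, at 21.6 ± 0.693 CPM in WT and 10.1 ± 1.94 CPM in CF (-1.10 ± 0.16, adjusted p = 0.00534).

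Smooth muscle and heart muscle share some genes, and the list was therefore also read without the CF libraries that carried heart muscle RNA. Then 8 of 30 genes passed, all higher in CF, against 0.535% of all genes: MYOCD at 2.38, CNN1 at 2.30, ACTA2 at 2.15, ACTG2 at 2.10, MRVI1 at 1.85, MYH11 at 1.57, TAGLN at 1.40 and ITGA7 at 1.34. Those values are close to the ones over all libraries. DES, desmin, which heart, skeletal and smooth muscle all make, fell from 1.2 to 0.47 and did not pass, and its 336 CPM in CF day 65 replicate 1 stand against 105, 86.8 and 139 CPM in the other CF libraries. Skeletal muscle genes gave 0 higher and 1 lower of 15 by edgeR, against 11.2% and 8.67% of all genes, the lower one being TNNT1 (-1.95), with 3 higher at an unadjusted p below 0.05 and 3 by DESeq2.

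**Figure D3:**
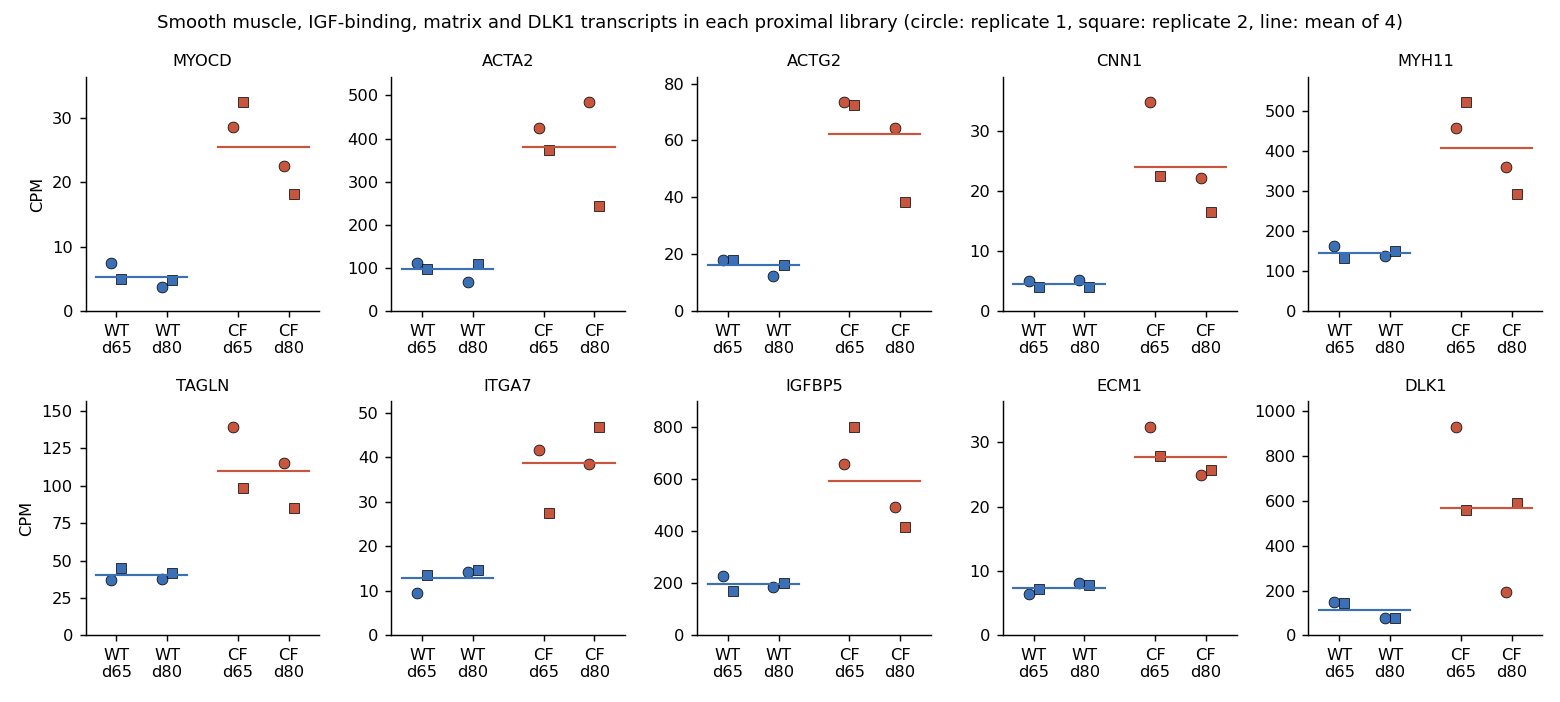
Normalised read counts (CPM) of 7 smooth muscle genes, IGFBP5, ECM1 and DLK1 in each proximal library, by genotype and day, with a line at the mean of 4 libraries. In all 10 panels every CF library lies above every WT library; MYOCD, for example, runs from 18.2 to 32.5 CPM in CF and from 3.80 to 7.48 CPM in WT.

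Of 23 genes of the insulin-like growth factor (IGF) axis tested, 5 were higher and 1 was lower in CF, against 11.2% and 8.67% of all genes, with a median of 0.24. In the fit of 6 libraries IGFBP5 at 1.69 and STC1 at -1.37 passed and no other member did. IGFBP5, a binding protein deposited in matrix, was at 230, 169, 188 and 201 CPM in WT and at 658, 804, 494 and 419 CPM in CF, 2.93-fold higher (1.55 ± 0.17, adjusted p = 0.00233). IGFBP3, the main carrier of IGFs in plasma, was at 2.94 ± 2.02 CPM in WT and 15.2 ± 5.47 CPM in CF (2.35 ± 0.55, adjusted p = 0.0216), and was at 1.98 in that fit. HTRA3, a secreted serine protease, was at 7.27 ± 2.10 and 34.7 ± 11 CPM (2.25 ± 0.30, adjusted p = 0.00387), and was at 1.88 there.

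STC1, the hormone stanniocalcin, was the lower member at 92.5 ± 12.9 CPM in WT and 38.9 ± 4.04 CPM in CF (-1.25 ± 0.13, adjusted p = 0.00196). IGF2, the main fetal growth factor of the axis, did not pass. It was at 1760, 2140, 1944 and 1962 CPM in WT and at 730, 1748, 394 and 1428 CPM in CF (-0.88 ± 0.40, adjusted p = 0.143), so that all CF values were below the WT values but spread widely.

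IGF2 is an imprinted gene, expressed from the paternal copy, and imprinted genes were listed because CF fetuses were cloned. Of 26 tested, 3 were higher and 1 was lower, which is near or below the 11.2% and 8.67% of all genes, so that the list as a whole did not stand apart by count. DLK1, a Notch-like membrane protein of immature mesenchyme, was at 149, 143, 77.7 and 76.8 CPM in WT and at 932, 558, 192 and 591 CPM in CF, 5.09-fold higher (2.35 ± 0.32, adjusted p = 0.00425). The highest CF value is that of a library with heart muscle RNA, and DLK1 was at 1.63 and still passed without both such libraries. MEST and HERC3 were higher at 0.52 and 0.80, and neither passed in the fit of 6 libraries. In that fit 1 of the 26, DLK1, was higher and 1, COPG2, was lower by edgeR, and DESeq2 called 2 higher and 3 lower. COPG2, a coat protein gene beside MEST, was the lower one, at 48.9 ± 3.46 CPM in WT and 21.9 ± 0.411 CPM in CF (-1.16 ± 0.09, adjusted p = 0.00103).

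Of 22 cartilage genes, 5 were higher and 0 lower by edgeR, against 11.2% and 8.67% of all genes, with a median of 0.77, and 17 did not pass; 2 were lower at an unadjusted p below 0.05 and 1 by DESeq2. COL9A3, a cartilage collagen chain, was at 55.0, 30.1, 37.7 and 29.0 CPM in WT and 254, 322, 71.8 and 202 CPM in CF (2.4 ± 0.35, adjusted p = 0.005). COL11A2, which lies in the core of cartilage fibrils, was at 6.20 ± 1.97 and 22.2 ± 7.25 CPM (1.85 ± 0.24, adjusted p = 0.00377). ACAN, the large proteoglycan aggrecan, was at 5.78 ± 2.54 and 17.1 ± 8.14 CPM (1.58 ± 0.36, adjusted p = 0.02). COL9A2 and MIA were higher at 1.38 and 0.85. Without the CF libraries with heart muscle RNA 0 of the 22 passed by edgeR, 6 were higher at an unadjusted p below 0.05 and 4 by DESeq2, and COL9A3 was at 2.11.

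In the matrix list 19 of 53 genes were higher and 0 lower by edgeR, against 11.2% and 8.67% of all genes, and 34 did not pass. The median was 0.63, and 2 were lower at an unadjusted p below 0.05 and 0 by DESeq2. ECM1, a glycoprotein of basement membranes, was at 6.50, 7.25, 8.15 and 7.85 CPM in WT and 32.4, 27.8, 24.9 and 25.7 CPM in CF (1.90 ± 0.15, adjusted p = 0.00103). SSC5D, a secreted scavenger receptor protein, was at 10.2, 13.1, 9.59 and 7.17 CPM in WT and 30.7, 26.3, 20.9 and 47.8 CPM in CF (1.66 ± 0.28, adjusted p = 0.00813). Both kept all CF libraries above all WT libraries. LTBP2, which binds microfibrils, was at 41.0 ± 6.52 and 119 ± 30.8 CPM (1.52 ± 0.20, adjusted p = 0.00387), and ADAMTSL4, another microfibril protein, at 3.81 ± 0.942 and 17.2 ± 8.99 CPM (2.13 ± 0.29, adjusted p = 0.00425).

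COL6A1 and LAMB2, of the pericellular matrix and the basement membrane, were higher by smaller amounts at 0.69 and 0.71. The largest matrix values came from genes whose CF libraries disagreed. POSTN, periostin, was at 250, 66.6, 31.7 and 938 CPM in CF and at 25.6 to 48.4 CPM in WT (3.02 ± 0.90, adjusted p = 0.047). TNXB, tenascin X, and COL5A3, a minor fibrillar collagen, were likewise highest in CF day 65 replicate 1 and CF day 80 replicate 2, at 48.9 and 115 CPM and at 18.0 and 44.9 CPM. COL1A1, the main fibrillar collagen of connective tissue, was at 2332, 1925, 1686 and 1721 CPM in WT and 4390, 4809, 1870 and 8710 CPM in CF (1.37 ± 0.40, adjusted p = 0.0419). Without these libraries POSTN and TNXB were at 0.48, COL5A3 at 0.97 and COL1A1 at 0.69, and 1 of 53 matrix genes passed by edgeR and 11 by DESeq2.

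Of 43 genes of the signals between epithelium and mesenchyme, 13 were higher and 2 were lower, against 11.2% and 8.67% of all genes, with a median of 0.30. NOG, noggin, which binds BMPs, was at 0.898 ± 0.452 CPM in WT and 5.25 ± 1.72 CPM in CF (2.56 ± 0.43, adjusted p = 0.00795). GREM1, gremlin, another BMP antagonist, was at 3.51, 1.92, 5.29 and 5.49 CPM in WT and 11.3, 14.2, 12.2 and 13.4 CPM in CF (1.73 ± 0.28, adjusted p = 0.00674). CHRD, chordin, was at 1.13.

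Among Wnt antagonists, WIF1 was at 8.04 ± 3.22 and 27.2 ± 4.17 CPM (1.75 ± 0.29, adjusted p = 0.00688), NOTUM, which removes the lipid from Wnt proteins, was at 4.05 ± 1.24 and 14.2 ± 2.77 CPM (1.81 ± 0.22, adjusted p = 0.00327), and SFRP1 and DKK2 were higher at 2.47 and 1.00. SFRP2 (1.66, adjusted p = 0.0576), DKK3 (1.33, adjusted p = 0.0598), DKK1 (0.26, adjusted p = 0.811) and the hedgehog antagonist HHIP (0.012, adjusted p = 0.941) did not pass. AXIN2, a target gene of the pathway, was higher at 0.65. GLI1, a hedgehog target gene, was at 34.0 ± 9.56 and 56.5 ± 8.66 CPM (0.74 ± 0.20, adjusted p = 0.0316), and GLI2 at 0.61. SCUBE1, a secreted protein of vessels and mesenchyme, was at 12.9, 5.99, 6.41 and 6.49 CPM in WT and 41.0, 51.7, 27.8 and 25.8 CPM in CF (2.18 ± 0.23, adjusted p = 0.00199).

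The lower members were ligands. FGF10, which drives the outgrowth of buds, was at 49.1, 48.9, 72.7 and 61.1 CPM in WT and 31.1, 38.8, 36.9 and 55.5 CPM in CF (-0.51 ± 0.14, adjusted p = 0.0385), with CF day 80 replicate 2 inside the WT range. BMP5 was at 112 ± 21.1 and 63.9 ± 20.3 CPM (-0.85 ± 0.16, adjusted p = 0.0102). Without the CF libraries with heart muscle RNA 1 of the 43 genes was higher by edgeR and 12 by DESeq2, and NOG and GREM1 were at 2.66 and 1.82 and did not pass. No member was lower by edgeR then, while 2 were lower at an unadjusted p below 0.05 and by DESeq2.

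Ion transport genes were listed because the altered gene is a channel. Of 32 tested, 10 were higher and 3, CFTR among them, were lower, with a median of 0.32. Over all genes 11.2% were higher and 8.67% lower, so that the share of lower members is near that of all genes. ANO1, a calcium-activated chloride channel, was at 19.5, 27.1, 36.0 and 34.0 CPM in WT and 60.0, 59.6, 52.9 and 58.2 CPM in CF, 2.02-fold higher (1.01 ± 0.17, adjusted p = 0.00715). SLC26A9, an epithelial chloride transporter, was at 9.70, 9.22, 22 and 38.7 CPM in WT and 21.7, 21.6, 29.0 and 66.6 CPM in CF (0.92 ± 0.28, adjusted p = 0.0487), and the groups overlap, with higher values at day 80 in both genotypes.

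SLC34A3, a sodium phosphate cotransporter, was at 2.79, 2.85, 7.65 and 4.58 CPM in WT and 14.5, 13.2, 30.6 and 27.7 CPM in CF (2.28 ± 0.18, adjusted p = 0.00103). CATSPER4, a calcium channel subunit known from sperm, was at 2.69 ± 1.18 and 15.2 ± 6.30 CPM (2.50 ± 0.30, adjusted p = 0.00302), PKD1, polycystin 1, at 40.9 ± 8.38 and 139 ± 30.3 CPM (1.76 ± 0.20, adjusted p = 0.00233), and KCNH2, a potassium channel, at 3.18 ± 0.750 and 10.5 ± 3.11 CPM (1.70 ± 0.26, adjusted p = 0.00594). KCND3, SLC6A6, CLCN2 and SLC4A2 were higher at 2.12, 1.30, 0.85 and 0.69.

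ATP1B1, the beta subunit of the sodium pump, was lower in CF at 291 ± 9.51 against 172 ± 16.9 CPM (-0.76 ± 0.09, adjusted p = 0.00292). KCNN4, a calcium-activated potassium channel, was at 8.57, 6.20, 26.9 and 42.6 CPM in WT and 4.65, 2.6, 8.74 and 12.8 CPM in CF (-1.37 ± 0.28, adjusted p = 0.0134). The subunits of the epithelial sodium channel were low and not distinguishable between genotypes. SCNN1A was at 2.08 ± 1.15 and 2.05 ± 0.375 CPM (0.10 ± 0.40, adjusted p = 0.876) and SCNN1B at 3.54 ± 1.33 and 3.07 ± 0.842 CPM (-0.15 ± 0.31, adjusted p = 0.756). In the fit of 6 libraries 3 of the 32 genes passed, SLC34A3 at 2.27, CATSPER4 at 2.6 and PKD1 at 1.68, and ANO1 was at 0.99 and did not.

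Markers of airway cells were mostly low at these days. Of 31 tested, 6 were higher and 0 lower by edgeR, against 11.2% and 8.67% of all genes, with a median of 0.70, and 1 was lower at an unadjusted p below 0.05 and by DESeq2. TP63, the transcription factor of basal cells, was at 0.575, 0.240, 0.662 and 2.49 CPM in WT and 7.26, 3.56, 3.07 and 19.8 CPM in CF (3.25 ± 0.69, adjusted p = 0.0156). Its highest CF values are in the libraries with heart muscle RNA, and without them it was at 2.12 and did not pass. KRT17, a basal keratin, was at 2.53 ± 3.35 and 11.4 ± 5 CPM (2.62 ± 0.73, adjusted p = 0.038). Of the dynein and cilia genes listed, DNAH17 was at 1.91 ± 0.448 and 8.46 ± 1.16 CPM (2.14 ± 0.24, adjusted p = 0.00247) and CCDC39 at 7.40 ± 3.80 and 17.1 ± 3.99 CPM (1.18 ± 0.36, adjusted p = 0.0495). CCNO, needed for multiple cilia, was at 1.00, and BPIFB1, a secretory cell product, at 3.33. WFDC2, a secreted airway protein, did not pass, at 16.1 ± 12.7 and 36.8 ± 14.2 CPM (1.32 ± 0.44, adjusted p = 0.063).

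In the distal lung of the same animals TP63 was at -1.87 ± 0.86 and KRT17 at -2.28 ± 1.03, neither past the test. The median of the list was -1.41 there, whereas DNAH17 was at 1.87 ± 0.23 and passed. DNAH17 (2.13) was also the member of the list of 31 that passed in proximal lung without the CF libraries with heart muscle RNA. How much large airway each piece of tissue held is not given in the sources used here, and its part in these values was not tested.

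Of 22 distal epithelial genes 3 were higher, 3 were lower and 16 did not pass, against 11.2% and 8.67% of all genes. In the fit of 6 libraries 0 of the 22 passed by edgeR, an unadjusted p below 0.05 was found for 3 higher and 3 lower members, and DESeq2 called 2 and 3. SFTPD, surfactant protein D, was at 0.748, 2.46, 6.86 and 7.33 CPM in WT and 3.73, 2.54, 27.1 and 27.7 CPM in CF (1.48 ± 0.36, adjusted p = 0.025), and ABCA3, the lipid transporter of lamellar bodies, at 15 ± 2.82 and 23.7 ± 4.09 CPM (0.66 ± 0.12, adjusted p = 0.00933). CLDN18, a tight junction protein of the alveolus, was at 55.1, 59.5, 61.0 and 90.1 CPM in WT and 19.3, 13.3, 62.5 and 51.2 CPM in CF (-1.11 ± 0.30, adjusted p = 0.0324), with the lowest CF values at day 65.

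Of the FGF-responsive tip factors, ETV5 was lower (389 ± 40.1 against 276 ± 36.7 CPM, -0.50 ± 0.08, adjusted p = 0.00783) and ETV4 was higher (35.4 ± 4.89 against 54.3 ± 4.41 CPM, 0.62 ± 0.12, adjusted p = 0.0127). SFTPB, surfactant protein B, was higher at day 80 than at day 65 in both genotypes, at 34.1, 73.7, 286 and 226 CPM in WT and 50.8, 42.7, 241 and 214 CPM in CF, and did not pass between them (-0.19 ± 0.21, adjusted p = 0.555). SFTPA1, surfactant protein A, was low, at 0.683 ± 0.487 and 2.13 ± 2.20 CPM (1.07 ± 0.67, adjusted p = 0.276).

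General epithelial genes gave 2 higher and 1 lower of 15, shares near the 11.2% and 8.67% of all genes, and without the CF libraries with heart muscle RNA 0 by edgeR, 4 higher and 1 lower at an unadjusted p below 0.05, and 3 and 1 by DESeq2. EPCAM, the epithelial adhesion molecule, was at 191, 185, 247 and 238 CPM in WT and 120, 105, 174 and 126 CPM in CF, 1.64-fold lower (-0.72 ± 0.11, adjusted p = 0.00658), and was at -0.66 without those libraries. ESRP2, an epithelial splicing factor, and ST14, an epithelial protease, were higher at 0.59 and 0.60. TJP1, a tight junction scaffold, did not pass (246 ± 16 and 225 ± 22.1 CPM, -0.13 ± 0.10, adjusted p = 0.402).

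Of 34 interferon-response and antigen presentation genes tested, 7 were lower in CF, against 8.67% of all genes, and 1 was higher, with a median of -0.20. All CF libraries were below all WT libraries for 11 of them, as for 12.5% of all genes. CXCL10, a chemokine induced by interferon, was at 90.7, 150, 117 and 64.3 CPM in WT and 40.1, 50.1, 10.6 and 17.7 CPM in CF, 4.12-fold lower (-2.04 ± 0.34, adjusted p = 0.00735). CXCL9 and CXCL11, its neighbours on chromosome 6, were at 6.22 ± 3.98 and 1.24 ± 0.184 CPM (-2.27 ± 0.43, adjusted p = 0.011) and at 4.38 ± 0.317 and 1.42 ± 0.922 CPM (-1.88 ± 0.37, adjusted p = 0.0126). CXCL10 and CXCL11 were lowest in CF at day 80.

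B2M, the light chain of MHC class I, was at 243, 341, 315 and 238 CPM in WT and 150, 123, 196 and 164 CPM in CF (-0.86 ± 0.17, adjusted p = 0.0126). OVAR-DRB1, an MHC class II chain of a family of similar genes whose reads could be split between copies or lost by allele, was at 10.8 ± 2.33 and 3.85 ± 1.49 CPM (-1.54 ± 0.29, adjusted p = 0.011). IFIT2 and IFIT5, which bind viral RNA, were lower at -0.87 and -0.55. IRF9, a subunit of the factor that carries the interferon signal, was the higher member, at 16.8 ± 3.03 and 27.5 ± 2.94 CPM (0.70 ± 0.16, adjusted p = 0.0187). The summed level of the list was 891 to 1183 CPM in WT and 670 to 782 CPM in CF. Without the CF libraries with heart muscle RNA 0 of the 34 passed by edgeR, 9 were lower at an unadjusted p below 0.05 and 7 by DESeq2, and CXCL10 was at -2.08 and did not pass.

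Markers of blood cells passed about as often as all genes (11.2% higher and 8.67% lower) or less. Of 17 myeloid and mast cell genes 2 (CD68 at 0.62 and LYZ at 1.29) were higher and 1 (PTPRC, the leukocyte gene CD45, at -0.91) was lower, and of 16 lymphoid genes CD8B was higher (1.37) and CD2 lower (-1.30). The lymphoid list summed to 31.6 to 41.4 CPM in WT and 34.5 to 46.3 CPM in CF. Of 14 erythroid genes 1 was higher, SPTB at 2.45. None of the 3 lists had a member that passed by edgeR without the CF libraries with heart muscle RNA, while 2 myeloid, 2 lymphoid and 1 erythroid genes were higher and 1 myeloid gene was lower at an unadjusted p below 0.05, and DESeq2 called 1 lymphoid and 1 erythroid gene higher.

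Of 18 endothelial genes 5 were higher and 3 were lower, against 11.2% and 8.67% of all genes. EGFL7 (1.48) and LYVE1 (-1.15) passed without the CF libraries with heart muscle RNA, and DESeq2 called 4 higher and 1 lower. VWF, the von Willebrand factor of larger vessels, was at 115, 107, 122 and 69.2 CPM in WT and 209, 228, 145 and 230 CPM in CF (0.98 ± 0.19, adjusted p = 0.013). EGFL7, a secreted vessel protein, was at 36.4 ± 6.54 and 94.2 ± 19.1 CPM (1.37 ± 0.18, adjusted p = 0.00387), ROBO4 at 56.8 ± 4.16 and 85.7 ± 4.34 CPM (0.59 ± 0.09, adjusted p = 0.00597), and NOS3 and TIE1 were higher at 0.78 and 0.28.

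LYVE1, a hyaluronan receptor of lymphatic vessels and some macrophages, was lower, at 31.9, 41.9, 35.9 and 34.0 CPM in WT and 24.7, 18.2, 14.3 and 13.0 CPM in CF (-1.07 ± 0.17, adjusted p = 0.0066). EMCN and TEK, of capillaries and veins, were lower by less, at -0.37 and -0.34.

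Other cell types that a piece of proximal lung could hold were checked. Of 15 nerve and Schwann cell genes 6 were higher, among them CHGB, a secretory granule protein, by a log2 value of 3.08 and ELAVL4, a neuronal RNA-binding protein, by 3.52, against 11.2% of all genes. The list summed to 121 to 155 CPM in WT and 132 to 162 CPM in CF. By edgeR 0 of the 15 passed without the CF libraries with heart muscle RNA, 3 were higher at an unadjusted p below 0.05 and 1 by DESeq2. MSLN, mesothelin, was at 0.722 ± 0.370 and 3.78 ± 1.11 CPM, and 2 of 6 mesothelial genes were higher, against 11.2% of all genes. The mesothelial list summed to 198 to 271 CPM in WT and 136 to 324 CPM in CF. None of the 6 passed by edgeR in the fit of 6 libraries, with MSLN at 2.21, while 2 were higher at an unadjusted p below 0.05 and 1 by DESeq2. Of 9 liver genes, whose products also circulate, 3 were higher and 1 was lower, against 11.2% and 8.67% of all genes. Of 8 tested in the fit of 6 libraries 0 passed by edgeR. There 3 were higher and 1 was lower at an unadjusted p below 0.05, and DESeq2 called 2 higher. By edgeR 0 of 7 genes of squamous oesophageal epithelium and 0 of 8 genes of thyroid and thymus passed, with 1 of each higher at an unadjusted p below 0.05 and by DESeq2, and their summed levels were at most 8.31 and 8.87 CPM in any library. Of 21 early stress genes 1 was higher (KLF2 at 1.02) and 1 lower (KLF6 at -0.28), which is below the 11.2% and 8.67% of all genes. Neither passed by edgeR in the fit of 6 libraries, where 2 of the list were higher at an unadjusted p below 0.05 and 2 by DESeq2.

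**Figure D4:**
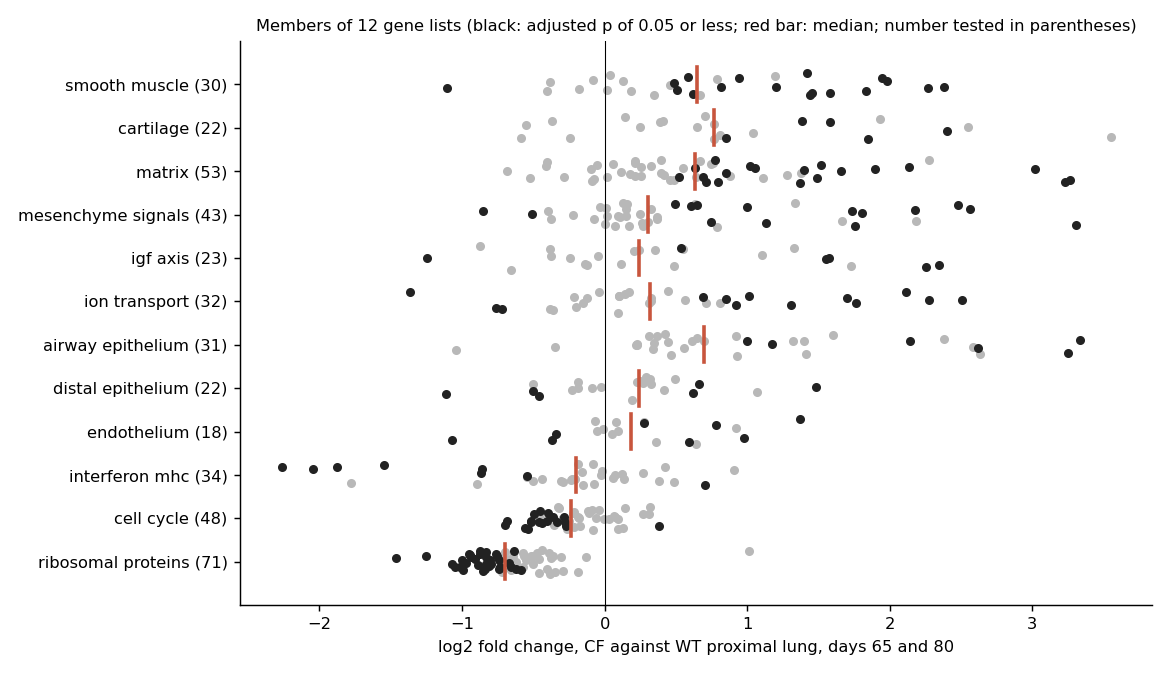
Log2 fold change of CF against WT proximal lung at days 65 and 80 for each tested member of 12 gene lists, with members at an adjusted p of 0.05 or less in black, the others in grey and a red bar at the list's median. The medians run from -0.70 for ribosomal proteins to 0.77 for cartilage, and smooth muscle has 17 black points, 16 to the right of 0.

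The genotype difference was then read within each day. At day 65, with 2 libraries a group, 105 genes (0.551%) passed, 70 higher and 35 lower, and at day 80 26 genes (0.136%) passed, 18 higher and 8 lower. At equal depth 63 and 5 genes passed, and DESeq2 called 2561 and 1811. Leaving out 1 library gave 0 genes (without CF day 65 replicate 1 or 2) to 2038 (without CF day 80 replicate 2) at day 65, and 0 (without WT day 80 replicate 1) to 242 (without CF day 80 replicate 1) at day 80. Where the omitted library is of the day compared, 1 library stands alone in its group and is assumed to vary like the other groups. The difference between the days was called for 0 of 19072 genes (0%) by edgeR, with 387 at an unadjusted p below 0.05, and for 9 genes by DESeq2. A set of 18 genes passed on both days, among them CCDC64, NFATC4, CDR1, MYOCD, MRVI1, ECM1, SLC34A3, CMKLR1, NRG2 and TNFRSF25. CMKLR1, the chemerin receptor, was at 22.6, 23.2, 21.4 and 21.5 CPM in WT and 8.50, 9.34, 5.97 and 6.21 CPM in CF (-1.59 ± 0.14, adjusted p = 0.00165). NRG2, a neuregulin, was at 1.34 ± 0.705 and 8.31 ± 1.35 CPM (2.73 ± 0.30, adjusted p = 0.00203), and TNFRSF25, a death receptor of T cells, at 6.09 ± 1.08 and 29.3 ± 5.04 CPM (2.25 ± 0.18, adjusted p = 0.00103).

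Distal lung of the same animals at the same days was compared in 1 fit with animal as a block. The difference between the regions was called for 0 of 19539 genes (0%) by edgeR, with 837 at an unadjusted p below 0.05, and for 321 genes by DESeq2. The distal libraries gave 2.96 ± 0.22 for CCDC64, 1.41 ± 0.11 for NFATC4, 2.38 ± 0.38 for MYOCD, 1.85 ± 0.21 for ACTA2, 1.92 ± 0.21 for ACTG2, 1.47 ± 0.17 for IGFBP5 and 2.47 ± 0.38 for DLK1, and all passed there. POSTN was at 0.29 ± 0.80, TNXB at 0.78 ± 0.84 and ACAN at -0.54 ± 0.36 in distal lung, and none of them passed there. The 2 regions are of the same animals, so the distal values are not independent of the proximal ones.

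Later proximal libraries, from other days, were compared separately. At days 100 and 120, again with 4 libraries a genotype and the same gap in depth (26617761 to 38635126 in WT, 89854181 to 101116915 in CF), 1998 of 2097 genes that had been higher were again higher (95.3%, against 53.3% of all genes) and 1570 of 1644 that had been lower were again lower (95.5%, against 46.7%). Of these, 250 and 34 passed there, and 0 passed in the opposite direction by edgeR. The difference between the stages was called for 0 of 19622 genes (0%) by edgeR, with 981 at an unadjusted p below 0.05, and for 103 genes by DESeq2. At the later days MYOCD (0.85 ± 0.24, adjusted p = 0.12) and ACTA2 (1.03 ± 0.25, adjusted p = 0.0869) did not pass, and CCDC64 (2.68 ± 0.39, adjusted p = 0.0299), NFATC4 (1.97 ± 0.23, adjusted p = 0.0279) and CDR1 (-3.79 ± 0.43, adjusted p = 0.0279) passed.

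At day 147 the depths were alike, 124896207 to 125713608 in WT and 117316905 to 118526165 in CF, with 2 libraries a genotype. Of the genes higher at days 65 and 80, 1497 of 2082 were higher there (71.9%, against 49.9% of all genes), and of the genes lower, 865 of 1617 were lower (53.5%, against 50.1%). In that small comparison 1 gene was called in all. The change in the genotype difference from days 65 and 80 to day 147, tested on 12 libraries after these values were seen, was called for 1776 genes (8.87% of 20017), 1033 with a lower and 743 with a higher value at day 147. By the paper's methods, the WT animals at term were collected after natural birth, at a recorded time. Age, birth and depth of the WT libraries change together in this comparison, and their parts cannot be told apart.

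Smooth muscle genes were among those that differed, 12 of 30 with a lower and 1 with a higher value at day 147, against 5.16% and 3.71% of all genes. MYOCD was at 7.41 and 4.26 CPM in WT and 2.91 and 2.74 CPM in CF at day 147, below WT where it had been above. Its difference fell by 3.38 on the log2 scale. ACTA2, at 351 and 199 CPM in WT and 207 and 65.8 CPM in CF, fell by 3.06, and ACTG2, at 41.8 and 36.3 CPM in WT and 14.1 and 5.07 CPM in CF, fell by 4.03.

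Most genes had no called change in the difference. As examples from those that kept their sign at day 147, chosen after their values were seen, DLK1, COL9A3, NRG2, SLC34A3, SCUBE1, CATSPER4, IGFBP5 and EGFL7 are given. DLK1 was at 4.82 and 4.11 CPM in WT and 41.1 and 64.9 CPM in CF at day 147 (log2 fold change 3.57). COL9A3 was at 2.45, NRG2 at 2.82, SLC34A3 at 2.12, SCUBE1 at 1.61, CATSPER4 at 1.46 and IGFBP5 at 1.11. IGFBP5 was at 105 and 104 CPM in WT and 266 and 186 CPM in CF. EGFL7 was at 57.5 and 56.2 CPM in WT and 233 and 247 CPM in CF (2.08). None of these passed over all genes at day 147 alone, with 2 libraries a genotype.

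**Figure D5:**
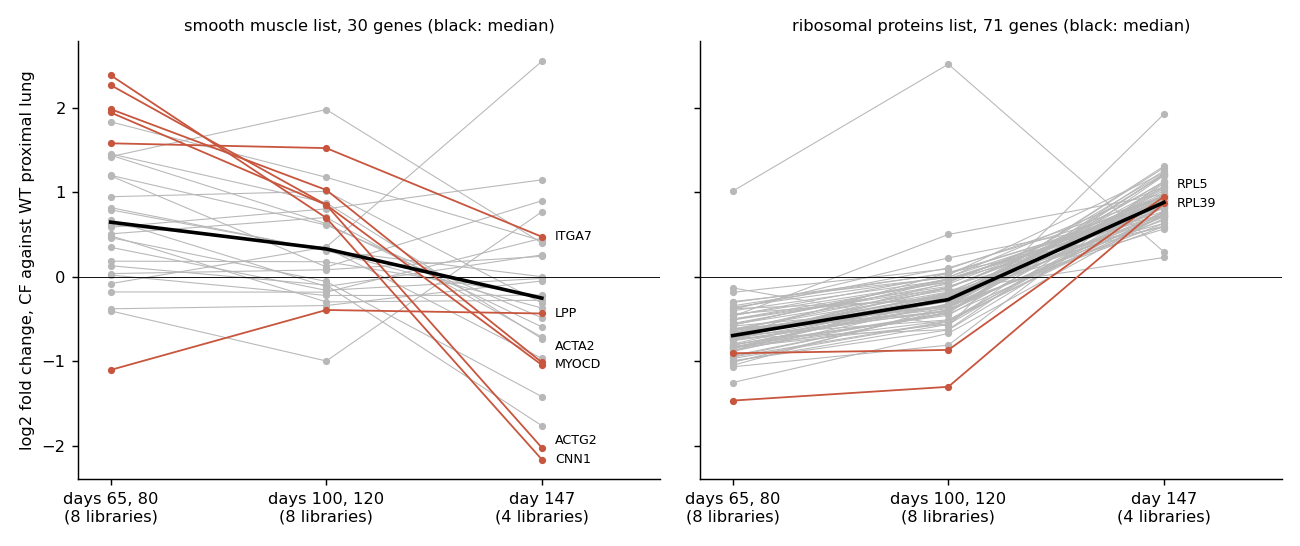
Log2 fold change of CF against WT proximal lung at days 65 and 80, days 100 and 120, and day 147 for genes of the smooth muscle list and of the ribosomal protein list, 1 line a gene, with named genes in red and the median in black. The smooth muscle median goes from 0.64 through 0.33 to -0.25, and that of ribosomal proteins from -0.70 through -0.27 to 0.88.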

How the data were processed

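RNA from proximal lung of 4 WT and 4 CF fetuses (days 65 and 80, 2 per condition) was analysed, out of 40 libraries. Per the labels and the study's methods, the authors primed cDNA with oligo-dT, aligned the 100 bp read pairs against sheep build Oar_v4.0 by STAR (2.7.0e_0320 in the methods, 2.6 in the submitters' processing notes), counted them with featureCounts 1.6.3 and tested them with edgeR 3.34.1. The deposited values are raw counts for 24478 genes, with no pooling of replicates. Strand setting and annotation release are not given in the sources used here. Even numbers made up 75.5% to 82.1% of counts between 1 and 20, the pattern of counting both mates, so counts are not independent molecules, and intervals or floors cover counting error only. A share of mitochondrial counts of 1.72% to 2.36% was found.

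The software was edgeR 4.0.16 with limma 3.58.1 under R 4.3.3, and DESeq2 1.42.0 as an alternative. The counts were filtered with filterByExpr (minimum count 10, total 15; 19072 genes), scaled by TMM and fitted by glmQLFit with day and genotype, with the spread as in edgeR 3. A DEG needed a Benjamini-Hochberg adjusted p up to 0.001 and a log2 difference no smaller than 0.58, and members of lists are counted at 0.05. A floor is 3 counts in a library. The test was tried on simulated data with 200 changed genes. Replicate numbers did not pair the samples: over 6 pairs of conditions the correlation of replicate differences was -0.213 to 0.0656. Replicates differed by far more than sampling noise (chi-square over degrees of freedom 26.1 to 403).

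The comparison, the gene lists and the named genes were chosen with earlier results of these data known. Lists covered smooth muscle, the IGF axis, imprinted genes, cartilage, matrix, mesenchymal signals, HOX genes, ion transport, distal, airway and general epithelium, interferon and MHC, myeloid, lymphoid, heart muscle, skeletal muscle, liver, squamous oesophagus, thyroid and thymus, mesothelium, endothelium, erythroid, nerve, cell cycle, X-linked escape, RNA lacking poly(A), of which CDR1 was the sole gene tested, and early stress. Ribosomal protein and respiratory chain lists were added after the data were seen. Named genes were to be the 12 DEGs of largest change a direction whose average log2 CPM was at least 1, with no overlap, 3 with LOC symbols, list members, and genes the study follows. Since 4 DEGs passed, the other genes that passed on both days and list members were named from the values. Some genes are not reported here. No sequence is printed, and a correction for GC content was not made, since both need a genome. The settings tried were RLE factors, DESeq2, other filters, thinning (seed 1), gene length and average level trends (lowess span 0.3), a replicate block, bias-adjusted quasi-likelihood, glmTreat, all proximal libraries, summed libraries and libraries left out.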

Additional observations from a re-analysis of the deposited data

Results flagged for a closer look

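The genotype difference of 34 of the 108 genes followed here changed from days 65 and 80 to day 147 in a test of that change itself (edgeR, 12 libraries, chosen after the data were seen), against 8.87% of all genes. The genes followed were not chosen at random. Beside ACTA2, ACTG2 and MYOCD at -3.06, -4.03 and -3.38, the smooth muscle genes CNN1 at -4.61, MYH11 at -2.25, TAGLN at -2.10, MRVI1 at -1.47 and ITGA7 at -1.17 had a lower log2 fold change at day 147 by these amounts. Lower values were also found for the cartilage gene ACAN at -2.44 and the matrix genes ADAMTSL4 at -2.13, ECM1 at -2.07 and LTBP2 at -1.67. The same held for KRT17 at -6.30 and DNAH17 at -1.76 of the airway list and ABCA3 at -1.80 of the distal epithelial list. Among transport genes it held for ANO1 at -2.79, SCNN1B at -2.31 and PKD1 at -1.58. TOP2A, GREM1, MYBL2 and CCDC64 were lower at -2.96, -1.98, -1.41 and -1.24. CDR1 had a higher value by 7.0, as had STC1 by 3.89, IGF2 by 3.78, LOC106991688 by 3.71, LYVE1 by 3.58, FGF10 by 2.30, RPL39 by 2.27, BMP5 by 2.10, RPL5 by 1.79, B2M by 1.16, COPG2 by 0.78 and IFIT5 by 0.71. Birth of the WT animals and the depth of WT libraries differ between these days as well, and their parts were not tested.

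In 13 of 280 groups of 4 libraries 1 library stood off from its group by Dixon's ratio, close to the 5% that chance gives. CF day 80 replicate 2 had COL11A2 at 33.0 CPM against 17.7 to 19.1, SLC26A9 at 66.6 CPM against 21.6 to 29.0 and LOC101118735 at 25.8 CPM against 29.0 to 29.5 in the other CF libraries. CF day 80 replicate 1 had IGFBP3 at 7.06 CPM against 17.4 to 18.6, and CF day 65 replicate 1 had LPP at 7.17 CPM against 10.9 to 11.3. WT day 80 replicate 2 had CLDN18 at 90.1 CPM against 55.1 to 61.0, KRT17 at 7.52 CPM against 0.359 to 1.24 and MYH7, a ventricular myosin, at 1.78 CPM against 1.28 to 1.35 in the other WT libraries. WT day 65 replicate 1 had SCUBE1 at 12.9 CPM against 5.99 to 6.49 and MYL7 at 0.115 CPM against 0. WT day 65 replicate 2 had MYL4 at 4.52 CPM against 0.662 to 1.04, TNNT2 at 0.120 CPM against 0 and a skeletal muscle list sum of 64.9 CPM against 36.3 to 39.3.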

How the results depend on the processing

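DEG counts depended on the settings. Higher and lower DEGs numbered 1081 and 464 by DESeq2, 218 and 35 with libraries of each condition summed, 37 and 38 with the length trend removed, 13 and 6 without a filter beyond 1 count, 11 and 7 by the bias-adjusted quasi-likelihood, 11 and 5 with all proximal libraries, 1 and 1 by glmTreat, and 0 and 0 without both CF libraries with heart muscle RNA (edgeR). Lower DEGs numbered 3 with RLE factors, an average log2 CPM of 1 or more or the level trend removed, and 2 at equal depth. Leaving out 1 library gave 0 to 28 higher and 0 to 24 lower DEGs. Replicate numbers do not pair these samples, and the replicate block gave 0 and 0 DEGs, 1855 higher and 1484 lower genes at 0.05, 4 genes at day 65 and 0 at day 80.

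At an adjusted p of 0.05, genes higher and lower numbered 215 and 54 by glmTreat, 853 and 230 with all proximal libraries and 99 and 35 without both CF libraries with heart muscle RNA, while lower genes numbered 2565 by DESeq2 and 2857 with the length trend removed. Leaving out 1 library gave 799 to 2870 higher and 425 to 2678 lower genes, lowest without CF day 65 replicate 1 and highest without CF day 80 replicate 1. Day 65 gave 2561 genes by DESeq2, 63 at equal depth and 0 to 2038 without 1 library, and day 80 gave 1811, 5 and 0 to 242. The difference between days gave 9 genes by DESeq2 and 0 to 2 without 1 library, that between regions 321 and 0 to 0, and that between stages 103 and 0 to 3. CFTR no longer passed by glmTreat (-0.72), with all proximal libraries (-0.69), without both CF libraries with heart muscle RNA (-0.86) or with the level trend removed (-0.70), and lay between -0.88 and -0.52 without 1 library. The sign turned for SCNN1A (-0.23 to 0.32 without 1 library, negative without WT day 65 replicate 2 or CF day 65 replicate 1, -0.032 without both CF libraries with heart muscle RNA, -0.17 with the level trend removed), SCNN1B (-0.30 to 0.086 without 1 library, positive without WT or CF day 80 replicate 2), SFTPB (-0.36 to 0.075 without 1 library, positive without WT day 65 replicate 2), TJP1 (0.056 with the level trend removed) and MYH7 (-0.45 without both CF libraries with heart muscle RNA); none of these but MYH7 was near the threshold. The causes were not tested, beyond fewer samples where libraries were left out. Of 108 gene values, 104 kept direction and side of the threshold at equal depth, 106 with RLE factors and 40 of 106 without both CF libraries with heart muscle RNA.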

Other observations

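Of 48 cell cycle genes 17 were lower and 1 was higher in CF proximal lung at days 65 and 80 (adjusted p up to 0.05), against 8.67% and 11.2% of all genes, and 30 did not pass. The median log2 fold change of the list was -0.24. By average level, 13.7%, 16.3% and 22% of all genes were lower in deciles 8, 9 and 10. PCNA, the sliding clamp of replication, was at 217, 215, 185 and 189 CPM in WT and 132, 110, 146 and 112 CPM in CF (-0.68 ± 0.12, adjusted p = 0.00892 by edgeR). TOP2A, a topoisomerase of dividing cells, was at 422 ± 25.8 and 288 ± 46.7 CPM (-0.56 ± 0.11), and MCM6, of the replicative helicase, at 184 ± 16.1 and 128 ± 2.86 CPM (-0.52 ± 0.08). MYBL2, which drives late cell cycle genes, was the higher one at 45.6 ± 6.81 and 59.4 ± 6.85 CPM (0.38 ± 0.11). Without the CF libraries with heart muscle RNA 0 of 48 passed by edgeR, 18 were lower at an unadjusted p below 0.05 and 12 by DESeq2, while the median was -0.23 and PCNA, TOP2A and MCM6 were at -0.66, -0.62 and -0.51. At day 147 the difference was lower for 37 of the 48 than at days 65 and 80, with a median change of -1.70, against 5.16% of all genes.

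Ribosomal protein genes, a list made after the data were seen, gave 35 lower and 0 higher of 71 by edgeR (0 higher at an unadjusted p below 0.05 and by DESeq2), with a median of -0.70. Over all genes 8.67% were lower, and in the decile of highest average level 22%. Their summed level was 99435 to 116383 CPM in WT and 65955, 48551, 96338 and 53806 CPM in CF, so that CF day 80 replicate 1 lay close to WT. By edgeR 0 of 70 passed without the CF libraries with heart muscle RNA, 33 were lower at an unadjusted p below 0.05 and 18 by DESeq2. RPL39 was at 777 ± 23.2 and 287 ± 112 CPM (-1.47 ± 0.23) and RPL5 at 2845 ± 164 and 1527 ± 370 CPM (-0.91 ± 0.17). These genes have many near-identical copies in mammalian genomes, and how reads were divided among them is not given in the sources used here, so the values are uncertain. At day 147 the median was 0.88, and 57 of 71 had a higher difference there than at days 65 and 80, against 3.71% of all genes. Genes of 84 to 963 bases, the shortest decile, had a median of -0.15 over all functions. By average level, the medians of the 3 lowest deciles were 0.33 to 0.46 and that of the highest decile was -0.19.

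Of 63 nuclear genes of the respiratory chain, also listed after the data were seen, 16 were lower and 1 was higher (median -0.34), against 8.67% and 11.2% of all genes. By average level, 13.7%, 16.3% and 22% of all genes were lower in deciles 8, 9 and 10, and 12.9% in the shortest decile by gene length. NDUFA4 was the member that passed by edgeR without the CF libraries with heart muscle RNA, 19 were lower at an unadjusted p below 0.05 and 9 by DESeq2. NDUFA4 was at 103, 121, 99.0 and 109 CPM in WT and 41.5, 27.3, 46.7 and 30.4 CPM in CF (-1.57 ± 0.18). It lies on chromosome 4 at 19001142 to 19008503 (Oar_v4.0), and the next gene named here along that chromosome, PHF14 at 19027308 to 19263131, a chromatin reader, differed by a like amount, at 93.9, 97.2, 103 and 87.8 CPM in WT and 34.6, 29.2, 37.1 and 28.8 CPM in CF (-1.56 ± 0.11). At day 147 they were at -1.09 and -1.02. Both were chosen after their values were seen.

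HOX genes, which mark position along the body, gave 3 higher (HOXA4 at 0.73, HOXC6 at 2.03, HOXD3 at 2.72) and 1 lower of 19, against 11.2% and 8.67% of all genes. In the fit of 6 libraries 0 of 18 passed by edgeR, an unadjusted p below 0.05 was found for 4 higher and 1 lower gene, and DESeq2 called 2 and 1. Of 15 X-linked genes known to escape inactivation in other mammals 3 were lower (EIF2S3 at -0.92, EIF1AX at -0.65, USP9X at -0.49) and 1 was higher (KDM5C at 0.40), against 8.67% and 11.2% of all genes. The median of these genes was -0.28. The CF fetuses came from a male line and the sex of the WT fetuses is not given, so a part of sex was not tested. Again 0 of the 15 passed by edgeR in that fit, an unadjusted p below 0.05 was found for 1 higher and 5 lower genes, and DESeq2 called 2 lower. Uncharacterised loci held some of the larger differences. LOC106991688 was at 1178 ± 351 CPM in WT and 143 ± 29.6 CPM in CF (-3.01 ± 0.25), LOC105602963 at 1.47 ± 0.608 and 16.5 ± 4.16 CPM (3.48 ± 0.29) and LOC101118735 at 62.8 ± 3.65 and 28.3 ± 1.72 CPM (-1.15 ± 0.08). Of other genes that passed on both days, CDH24, a cadherin, was at 27.6 ± 6.41 and 66.4 ± 10.5 CPM (1.28 ± 0.10) and KRBA1 at 29.9 ± 2.46 and 69.6 ± 4.84 CPM (1.22 ± 0.10).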
